A study of Homo sapiens with 6 samples.

Results

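The bromodomain is a small protein module that binds acetylated lysine, most often on histone tails, and proteins that carry it are called acetyl-lysine readers. Expression of 6 genes of this kind, BRD1, BRD2, BRD3, BRD7, BRD8 and BRD9, was examined in Kasumi-1 cells. They were chosen by their symbols in GENCODE release 29, and all 6 were among the 32364 genes of the deposited table and had a mean expression above the minimum for testing. Kasumi-1 is a human acute myeloid leukemia cell line with the t(8;21) translocation, which fuses RUNX1 to RUNX1T1. I13 is an inhibitor of histone deacetylases (HDACs), the enzymes that remove the acetyl groups these readers bind. The series holds 3 libraries of cells that had received I13 at 0.5 µM over 48 h and 3 of control cells, to which the methods assign the same concentration of the solvent DMSO. One cell line at a single dose and time was sequenced. The study's legend describes its sequencing figure as representative of 3 independent experiments. The labels do not say whether the libraries came from separate cultures, so p-values measure the spread between these libraries, which may be technical.

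The readers differ in the complexes they serve. BRD2 and BRD3 belong to the BET family, whose tandem bromodomains bind acetylated histones at active promoters and enhancers and which is a drug target in acute myeloid leukemia. BRD1, also named BRPF2, is a scaffold of histone acetyltransferase complexes with KAT7 or KAT6A. BRD7 is a subunit of PBAF and BRD9 of ncBAF, both forms of the SWI/SNF chromatin remodeler, and BRD8 is a subunit of the TIP60-EP400 acetyltransferase complex. The question posed by the design is whether the expression of these readers differed after HDAC inhibition.

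The authors deposited FPKM, which are fragments per gene scaled by exon length and by library depth. The exon length that returned whole fragments joins the exons of all annotated transcripts of a gene, which can be longer than the RNA expressed. Levels of different genes are therefore compared per annotated exon length only. The depth recovered from the FPKM was between 15281052 and 17221345 fragments per library. The leukemia and myeloid markers MPO, KIT, CD34 and RUNX1T1 were expressed in every library (at least 12.5 FPKM), whereas CD3E, CD2, HBA1 and COL1A1, markers of T cells, erythroid cells and fibroblasts, did not exceed 0.145 FPKM. EPCAM, an epithelial marker, was at 20.8 to 26.5 FPKM with overlapping groups; its part in the results below was not tested. Control replicate 3 and I13 replicate 2 stood apart from the other 4 libraries on the first principal component, which carried 43.3% of the variance, and the labels give no batch. On component 2, with 20.5% of the variance, all 3 control libraries lay apart from all 3 I13 libraries. For each reader the value within the 4 libraries and within control replicate 3 and I13 replicate 2 is given, and also for other genes whose stated log2 fold change turned direction between them.

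Each of the 6 readers was expressed in all libraries, and the order of their levels was the same in each library. BRD2 had the highest level and BRD9 the lowest. Among the 39 bromodomain genes examined, ranked by mean FPKM, BRD2 was in place 2, BRD3 in place 11, BRD1 in place 12, BRD8 in place 17, BRD7 in place 21 and BRD9 in place 27. Place 1 was held by TRIM28 (160.5 FPKM), a corepressor of zinc finger proteins. The mean of BRD2, 36.96 FPKM, was 2.38-fold that of BRD3 and lay above 94.6% of the genes tested. BRD3 (15.5 FPKM) and BRD1 (14.33 FPKM) were close, 1.08-fold apart, and their ranges overlapped, although BRD3 was the higher of them in 6 of 6 libraries. The other neighbours in the order had ranges that did not overlap. BRD1 was 1.33-fold above BRD8, BRD8 was 1.18-fold above BRD7, and BRD7 was 1.68-fold above BRD9, whose level still lay above 65.8% of the genes tested. These places and folds depend on the annotated exon lengths. In fragments summed over control libraries, BRD8 (4006) was below BRD7 (4068).

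**Figure D1:**
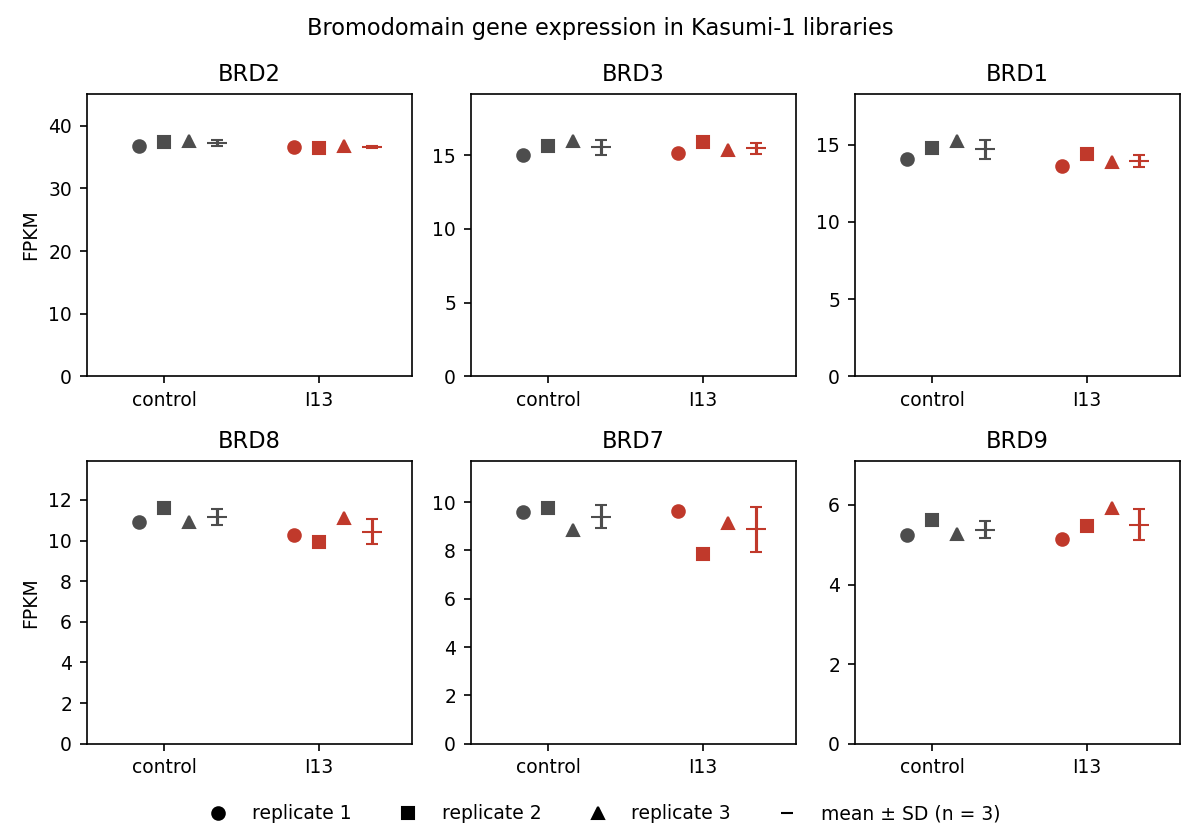
Expression of the 6 bromodomain genes in FPKM (y axis from 0, a different scale for each gene) in the 3 control and 3 I13 libraries. Each symbol is a library, and the bar beside it is the mean with the SD. Control and I13 libraries overlap for all 6 genes, and BRD7 is lowest in I13 replicate 2 (7.84 FPKM).

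None of the 6 genes passed the test between I13 and control cells. With limma on log2(FPKM + 0.1) over 18726 genes, the adjusted p was under 0.05 for 0 of the 6 genes, and it was at least 0.983 for each of them; such a p together with an absolute log2 fold change of 0.58 was passed by 0.0% of all genes tested. The unadjusted p was also under 0.05 for 0 of the 6 genes, against 5.14% of all genes tested, and by limma's voom on recovered fragments for 0 of the 6 genes, against 5.32%. Voom's adjusted p with the fold threshold was passed by 0 of the 6 genes and by 0.0463% of all genes so tested. In bulk RNA, fewer cells that express a gene and less of its RNA per cell cannot be told apart. I13 and control values overlapped for all 6 genes, while 9.52% of the genes tested had no overlap. The log2 fold change was below 0 for 5 genes and above 0 for 1 gene, with a median of -0.050 (all genes tested: 0.0058). The sizes allowed by limma's 95% intervals were small. These intervals of the 6 log2 fold changes ran from -0.30 to 0.22 at their widest, inside the threshold of 0.58 used by the study. Voom gave larger standard errors than limma for BRD2 (0.062 against 0.040), BRD3 (0.070 against 0.052) and BRD1 (0.074 against 0.056). They were also larger for BRD8 and BRD9 and smaller for BRD7 (0.083 against 0.091), so the width of the intervals depends on the fit. A p that misses the threshold does not show that the levels were the same, and adding 0.1 to the FPKM shrinks the log2 fold change of weakly expressed genes.

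**Figure D2:**
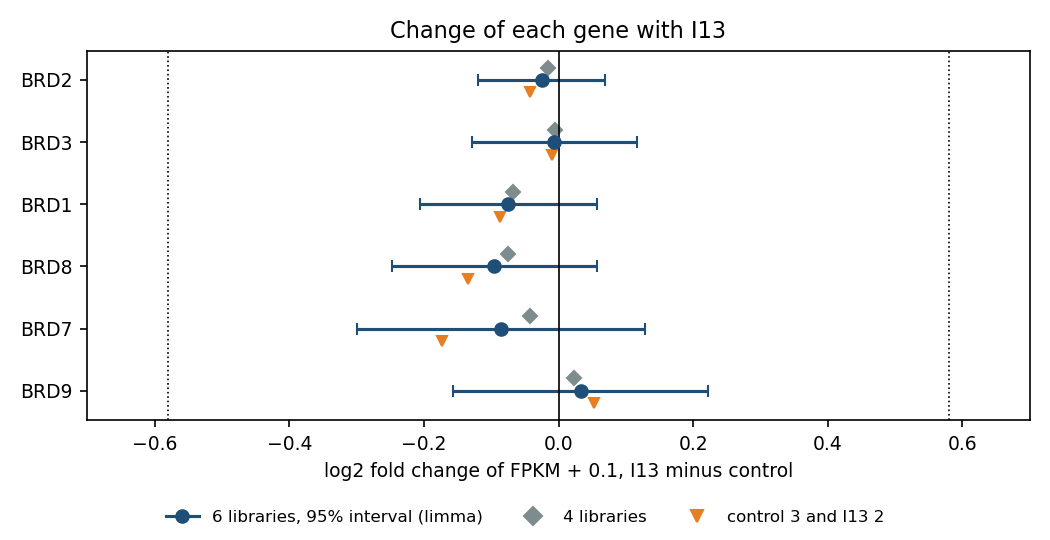
Log2 fold change of FPKM + 0.1 (x axis) for the 6 genes, as the value over 6 libraries with its 95% interval from limma, the value within 4 libraries (diamonds) and that within control replicate 3 and I13 replicate 2 (triangles). Dotted lines mark 0.58 in either direction, and every interval includes 0 and stays between the lines.

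BRD2 was the steadiest gene of the group. Its expression was 36.72, 37.47 and 37.65 FPKM in control replicates 1, 2 and 3 and 36.59, 36.54 and 36.77 FPKM in I13 replicates 1, 2 and 3. The 6 values lie within 1.03-fold of each other, and I13 replicate 3 falls just inside the control range. The means were 37.28 ± 0.490 FPKM (SD, n = 3) in control and 36.63 ± 0.119 FPKM (SD, n = 3) in I13 libraries, a log2 fold change of -0.025 (standard error, SE, 0.040, limma adjusted p = 0.9996), with an interval from -0.12 to 0.069, or a change between -7.96% and 4.93%. The log2 fold change was -0.016 within the 4 libraries and -0.043 within control replicate 3 and I13 replicate 2. Between 4122 and 4717 fragments per library stood behind the FPKM values of BRD2, for which counting error alone gives a coefficient of variation of 1.5%. The coefficients among replicates were 1.31% in control and 0.325% in I13 libraries.

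BRD3, the other BET gene, gave 15.0, 15.61 and 16.0 FPKM in control replicates 1, 2 and 3. In I13 replicates 1, 2 and 3 it gave 15.17, 15.90 and 15.33 FPKM, all inside the control range. The difference on the log2 scale, -0.0062 (SE 0.052, limma adjusted p = 0.9996), was the smallest of the group. Among the 6709 genes at or above 5 FPKM, 6.72% had a smaller absolute change. The interval from -0.13 to 0.12 corresponds to a change between -8.57% and 8.43%. The log2 fold change was -0.0047 within the 4 libraries and -0.0092 within control replicate 3 and I13 replicate 2. The direction of this value turned when I13 replicate 1, I13 replicate 3 or control replicate 3 was left out, with log2 fold changes up to 0.015. The ratio of BRD3 to BRD2 was 0.408, 0.417 and 0.425 in the control libraries and 0.415, 0.435 and 0.417 in the I13 libraries. The groups overlapped and the means differed by 0.00555, less than the SD of either group (0.00834 and 0.0113). With a library left out the difference ran from -0.000922 (without I13 replicate 2) to 0.00973 (without control replicate 3).

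BRD1, the acetyltransferase scaffold, was at 14.07, 14.77 and 15.27 FPKM in control replicates 1, 2 and 3 and at 13.60, 14.37 and 13.89 FPKM in I13 replicates 1, 2 and 3. I13 replicates 1 and 3 were below every control library and I13 replicate 2 was not. The means were 14.70 ± 0.606 FPKM (SD, n = 3) and 13.95 ± 0.385 FPKM (SD, n = 3). This is a log2 fold change of -0.074 (SE 0.056, limma adjusted p = 0.983, unadjusted 0.223), and the interval from -0.21 to 0.057 allows a change between -13.3% and 4.02%. The value was -0.068 within the 4 libraries and -0.088 within control replicate 3 and I13 replicate 2.

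BRD8 and BRD9 each begin head to head with a gene of cell division on the other strand. BRD8 spans positions 138139766 to 138178986 of chromosome 5 (GENCODE release 29, GRCh38) on the minus strand and KIF20A, a kinesin of cytokinesis, on the plus strand, with start sites 482 bases apart in RefSeq. BRD9 spans 850291 to 892824 of chromosome 5 on the minus strand and TRIP13, an ATPase of the mitotic checkpoint, on the plus strand, with the nearest start sites 83 bases apart. The windows of 250 bases before and 50 bases after a start (RefSeq, GRCh38.p14) are printed to show what lies between such neighbouring starts. Capitals mark the GC box GGGCGG, the CCAAT box and the cell cycle element CHR, spelled either TTTGAA or, in its other form, TTCGAA. All were searched on both strands, and no matches in these windows overlap each other. The first window is that of BRD8 at chr5:138178581-138178880, minus strand, the next that of KIF20A at chr5:138178862-138179161, plus strand, and the last that of BRD9 at chr5:892752-893051, minus strand, which spans the start of TRIP13.
BRD8: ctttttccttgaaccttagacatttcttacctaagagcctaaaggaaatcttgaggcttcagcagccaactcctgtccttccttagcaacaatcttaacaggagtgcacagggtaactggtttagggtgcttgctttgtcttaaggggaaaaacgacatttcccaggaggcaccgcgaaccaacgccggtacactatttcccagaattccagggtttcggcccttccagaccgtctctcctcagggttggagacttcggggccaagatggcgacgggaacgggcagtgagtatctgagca
KIF20A: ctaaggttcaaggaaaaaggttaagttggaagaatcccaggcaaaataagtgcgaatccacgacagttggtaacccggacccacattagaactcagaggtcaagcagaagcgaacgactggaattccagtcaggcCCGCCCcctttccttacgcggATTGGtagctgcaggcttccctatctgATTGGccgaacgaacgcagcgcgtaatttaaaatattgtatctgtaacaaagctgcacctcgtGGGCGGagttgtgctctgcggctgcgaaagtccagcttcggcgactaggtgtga
BRD9: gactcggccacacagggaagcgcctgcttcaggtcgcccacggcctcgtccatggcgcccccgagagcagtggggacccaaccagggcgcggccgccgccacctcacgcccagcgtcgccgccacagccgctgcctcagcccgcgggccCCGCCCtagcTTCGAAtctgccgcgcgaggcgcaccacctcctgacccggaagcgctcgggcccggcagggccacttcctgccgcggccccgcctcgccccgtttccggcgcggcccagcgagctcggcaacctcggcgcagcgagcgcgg
The windows of BRD8 and KIF20A share their ends. The BRD8 window held none of these letters, and the window of KIF20A beside it held 2 GC boxes and 2 CCAAT boxes. The BRD9 window held 1 GC box and 1 TTCGAA. Over the 12 RefSeq windows of the 6 readers, a GC box was found in 8 windows of 5 genes (BRD8 being the exception), where 45.0% of all 35116 windows hold one. CCAAT was found in 0 of the 12 windows, against 34.6% of all windows, and the letters of CHR in 1, against 16.4%. The GC content of the window was 85.0% for BRD3, above that of 99.7% of all windows, and 51.0% for BRD8, the other windows of the readers lying between 50.3% and 77.3%. These matches are descriptions of the sequence and were not tested for binding.

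BRD8, the subunit of the TIP60-EP400 complex, had the largest absolute log2 fold change of the 6 over all libraries. It was at 10.94, 11.60 and 10.94 FPKM in control replicates 1, 2 and 3 and at 10.26, 9.95 and 11.12 FPKM in I13 replicates 1, 2 and 3. I13 replicate 3 was above control replicates 1 and 3, so the groups overlapped (exact permutation test, two-sided, p = 0.3, where 3 libraries against 3 cannot give less than 0.1). The values give a log2 fold change of -0.095 (SE 0.065, limma adjusted p = 0.983, unadjusted 0.183), a change of -6.40% with an interval from -15.8% to 4.03%. Among the genes at or above 5 FPKM on average, 75.4% had a smaller absolute change. The BRD8 value was -0.076 within the 4 libraries and -0.14 within control replicate 3 and I13 replicate 2, and without I13 replicate 3 it was -0.14.

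BRD7, the PBAF subunit, varied most among replicates. The values were 9.59, 9.75 and 8.85 FPKM in control replicates 1, 2 and 3 and 9.64, 7.84 and 9.14 FPKM in I13 replicates 1, 2 and 3. Control replicate 3 and I13 replicate 2, the libraries that stood apart, were the lowest of their groups. The coefficient of variation was 5.11% in control and 10.5% in I13 libraries, against 2.8% from counting error at 1110 to 1421 fragments. The log2 fold change was -0.086 (SE 0.091, limma adjusted p = 0.995, unadjusted 0.375), with an interval from -0.30 to 0.13 or a change between -18.8% and 9.28%. Without I13 replicate 2 it was 0.00013, the means of the remaining libraries being nearly equal. Within the 4 libraries it was -0.042, and within control replicate 3 and I13 replicate 2 it was -0.17.

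BRD9, the ncBAF subunit and a target of degraders in cancer research, was the gene with a log2 fold change above 0. It was at 5.24, 5.63 and 5.27 FPKM in control replicates 1, 2 and 3 and at 5.14, 5.47 and 5.92 FPKM in I13 replicates 1, 2 and 3. The lowest and the highest value of the 6 libraries were both from I13 cells. On the log2 scale I13 libraries were higher by 0.033 (SE 0.080, limma adjusted p = 0.9996, unadjusted 0.693), with an interval from -0.16 to 0.22 or a change between -10.3% and 16.7%. The value was 0.023 within the 4 libraries and 0.053 within control replicate 3 and I13 replicate 2, and without I13 replicate 3 it was -0.019. The ratio of BRD9 to BRD7, genes whose products mark different SWI/SNF assemblies, was 0.546, 0.577 and 0.595 in control and 0.533, 0.698 and 0.648 in I13 libraries. I13 replicates 2 and 3 were above all control libraries and I13 replicate 1 was below them. The difference of the means, 0.0534, was above the SD of the control group (0.0247) and below that of the I13 group (0.0846). It was 0.0176 without I13 replicate 2 and 0.1 without I13 replicate 1.

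The readers departed from their group means in different directions. In both control replicate 3 and I13 replicate 2, BRD1 and BRD3 were the highest of their group and BRD7 was the lowest. Relative to the other libraries of its group, BRD7 was lower by a log2 difference of -0.13 in control replicate 3 and -0.26 in I13 replicate 2. The same differences were 0.083 and 0.063 for BRD1 and 0.064 and 0.060 for BRD3. For BRD2 they were 0.021 and -0.0057, so it stayed near its group mean in both. BRD8 (-0.041 and -0.10) and BRD9 (-0.043 and -0.013) were below the mean of the other libraries. The summed level of the 6 genes was 91.5, 94.8 and 94.0 FPKM in control and 90.4, 90.1 and 92.2 FPKM in I13 libraries, with I13 replicate 3 inside the control range.

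**Figure D3:**
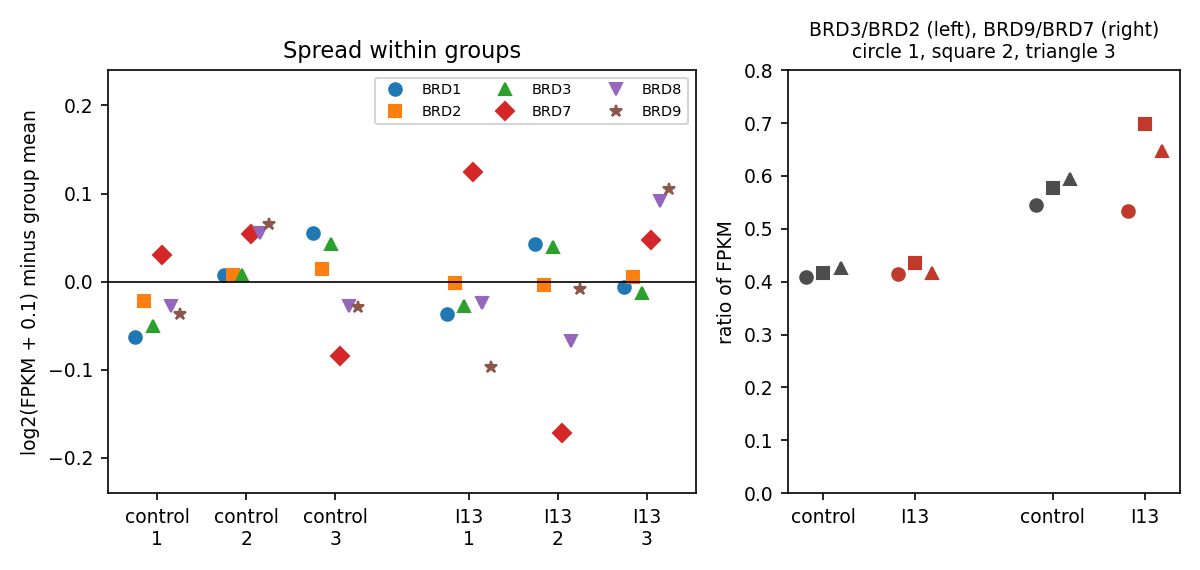
Left, log2(FPKM + 0.1) of each gene minus its group mean (y axis) in the 6 libraries. Right, the ratio of FPKM of BRD3 to BRD2 and of BRD9 to BRD7 (y axis from 0) per library, control in grey and I13 in red. BRD7 departs most, in I13 replicate 2, and both ratios overlap between the groups.

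For each reader the gene with the most similar pattern over the 6 libraries was found among those with a mean of at least 10 FPKM. Pearson correlations are given as a description, since the points share library and depth and 4132 or 4133 genes were searched for each. The gene nearest to BRD7 was CDK7 (r = 0.997), a kinase of transcription initiation and the cell cycle. CDK7 was at 12.04, 12.40 and 10.44 FPKM in control and at 12.06, 8.93 and 11.21 FPKM in I13 libraries, again lowest in control replicate 3 and I13 replicate 2. With BRD7, 130 of 4133 genes had a correlation above 0.9, and with BRD3, 168 of 4132 genes had one, so the nearest gene is 1 of many. The nearest genes were ATAD3A for BRD3 (r = 0.994), LGALS9 for BRD1 (r = 0.989), EXOSC10 for BRD2 (r = 0.989), ZNF516 for BRD8 (r = 0.968) and SRRM1 for BRD9 (r = 0.967).

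Other genes with a bromodomain and the partners of the 6 readers were examined with 6 lists. No gene of these lists passed the test. Of 82 listed genes 81 were tested, SP140 being under the minimum, and 0 had an unadjusted p under 0.05 by limma, where 5.14% of all genes tested had one. Of the 72 that could be tested by voom, ING3 and BICRAL had an unadjusted p under 0.05 (0.0492 and 0.0353), where 5.32% of all genes tested by voom had one, and neither passed an adjusted p. I13 and control libraries did not overlap for 5 of the 81 genes (6.17%, against 9.52% of all genes tested). SP110, ACTL6A and CDK9 were higher in every I13 library, and KAT6A and TRRAP were lower in every one, a direction without overlap found in 4.64% of all genes tested. ING3, BICRAL and these 5 genes were named after their values had been seen. The log2 fold change was below 0 for 55 of the 81 genes (67.9%, against 48.2% of all genes tested), with a median of -0.029. The median of the PBAF and ncBAF lists turned above 0 without control replicate 3 (0.0074 and 0.0032), and that of the P-TEFb and other bromodomain lists without I13 replicate 2 (0.0091 and 0.017). The lists share genes and were written with earlier results of these data known, so the split is a description.

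Among 32 other bromodomain genes the log2 fold changes lay between -0.25 for KAT2B and 0.23 for SP110, with a median of -0.032. SP110 was weakly expressed, with a mean of 0.24 FPKM and 21 to 31 fragments per library (SE 0.29). TRIM28 had a log2 fold change of -0.060 (SE 0.068), which was -0.092 within the 4 libraries and 0.0040 within control replicate 3 and I13 replicate 2, and BAZ1B, a subunit of the WICH remodeler, one of 0.093 (SE 0.077). Transcription elongation factor P-TEFb, which BET proteins help recruit, and its regulators formed a list of 13 genes with a median of -0.039. HEXIM2, at the lower end of this list with -0.39 (SE 0.26), had -0.71 within the 4 libraries and 0.27 within control replicate 3 and I13 replicate 2. Its mean was 0.73 FPKM, from 16 to 38 fragments per library. MEPCE and MLLT1, the most highly expressed of them, had log2 fold changes of -0.039 and -0.058. CDK9, the kinase of P-TEFb, was at 13.27 ± 0.318 FPKM (SD, n = 3) in control and 14.23 ± 0.274 FPKM (SD, n = 3) in I13 libraries, a log2 fold change of 0.10 (SE 0.051, limma adjusted p = 0.963, unadjusted 0.0862). HEXIM1, a P-TEFb inhibitor widely used as a marker of BET inhibition, was at 25.90 ± 1.12 FPKM (SD, n = 3) and 25.02 ± 1.33 FPKM (SD, n = 3), with a log2 fold change of -0.050 (SE 0.060). HEXIM1 had a log2 fold change of 0.028 within the 4 libraries and -0.20 within control replicate 3 and I13 replicate 2. It was also named after its values had been seen.

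The partners of BRD1 in acetyltransferase complexes (8 genes) had a median log2 fold change of -0.023. MEAF6 and KAT6B, the most highly expressed of them, both had values near -0.06 (SE 0.065 and 0.069). KAT6A, one of the acetyltransferases, was at 10.81 ± 0.348 FPKM (SD, n = 3) and 9.98 ± 0.455 FPKM (SD, n = 3), with a log2 fold change of -0.11 (SE 0.061, limma adjusted p = 0.971, unadjusted 0.105). The PBAF list (14 genes) had a median of -0.035 and the ncBAF list (13 genes) one of -0.036, and they share 8 genes. Among the most highly expressed members, ACTB had a log2 fold change of -0.015, SMARCB1 one of -0.036 and SMARCC1 one of -0.061. BICRAL, a subunit found in ncBAF, was at 3.51 ± 0.363 FPKM (SD, n = 3) and 2.97 ± 0.272 FPKM (SD, n = 3), with overlapping groups and a log2 fold change of -0.23 (SE 0.12, limma adjusted p = 0.955, unadjusted 0.0835). For the TIP60-EP400 list (16 genes) the median was -0.012, and the helicase subunit RUVBL2 and the chromodomain protein MORF4L1 had log2 fold changes of -0.0025 and -0.00014. Within the 4 libraries these were 0.055 and 0.014, and within control replicate 3 and I13 replicate 2 they were -0.12 and -0.028.

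**Figure D4:**
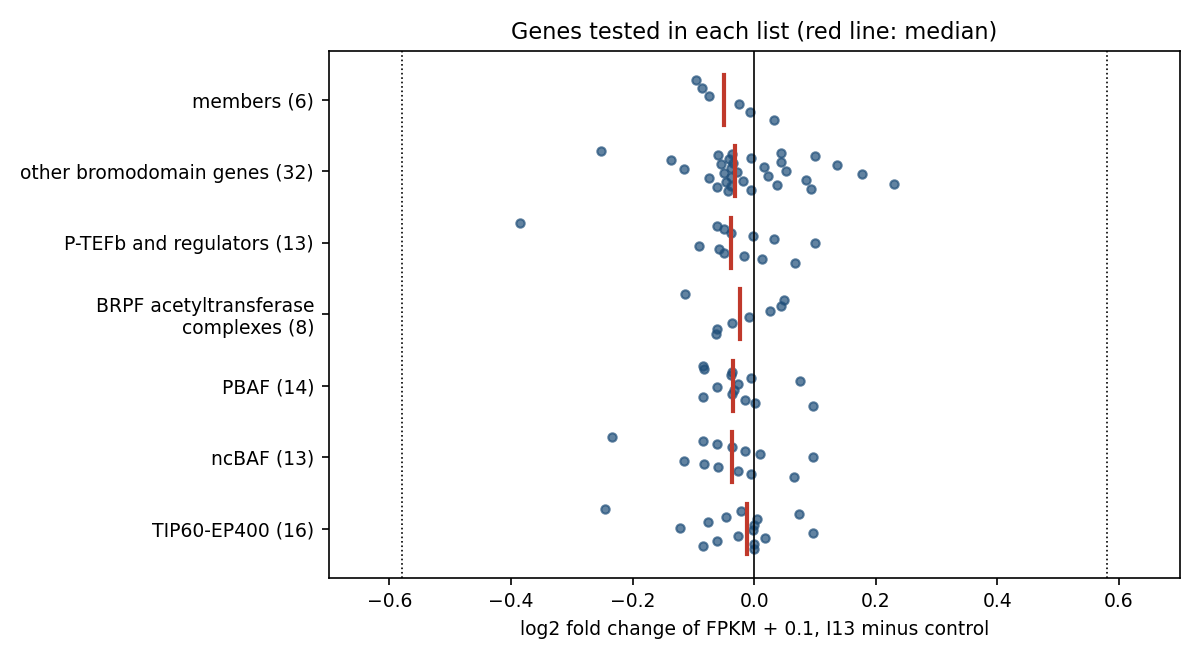
Log2 fold change of FPKM + 0.1 (x axis) of each gene tested, by list, with the number of genes tested in parentheses and the median as a red line. Dotted lines mark 0.58, and no gene of any list reaches them, the farthest being HEXIM2 at -0.39.

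KIF20A, which starts beside BRD8, was expressed at 17.66, 20.45 and 20.53 FPKM in control and at 18.91, 19.70 and 18.48 FPKM in I13 libraries, all inside the control range. Its log2 fold change was -0.035 (SE 0.072, limma adjusted p = 0.9996). TRIP13 was expressed at 13.47, 16.45 and 15.75 FPKM in control and at 14.82, 15.81 and 15.02 FPKM in I13 libraries, again inside the control range, with a log2 fold change of 0.0037 (SE 0.082, limma adjusted p = 0.9996). Per annotated exon length, both genes of cell division were above the reader they adjoin. In the control means KIF20A was at 19.55 FPKM against 11.16 FPKM for BRD8, and TRIP13 at 15.23 FPKM against 5.38 FPKM for BRD9. Fragments summed over control libraries were close, 3939 for KIF20A against 4006 for BRD8 and 2760 for TRIP13 against 2622 for BRD9. The exon lengths were 3958 bases for KIF20A, 7046 for BRD8, 3560 for TRIP13 and 9572 for BRD9.

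**Figure D5:**
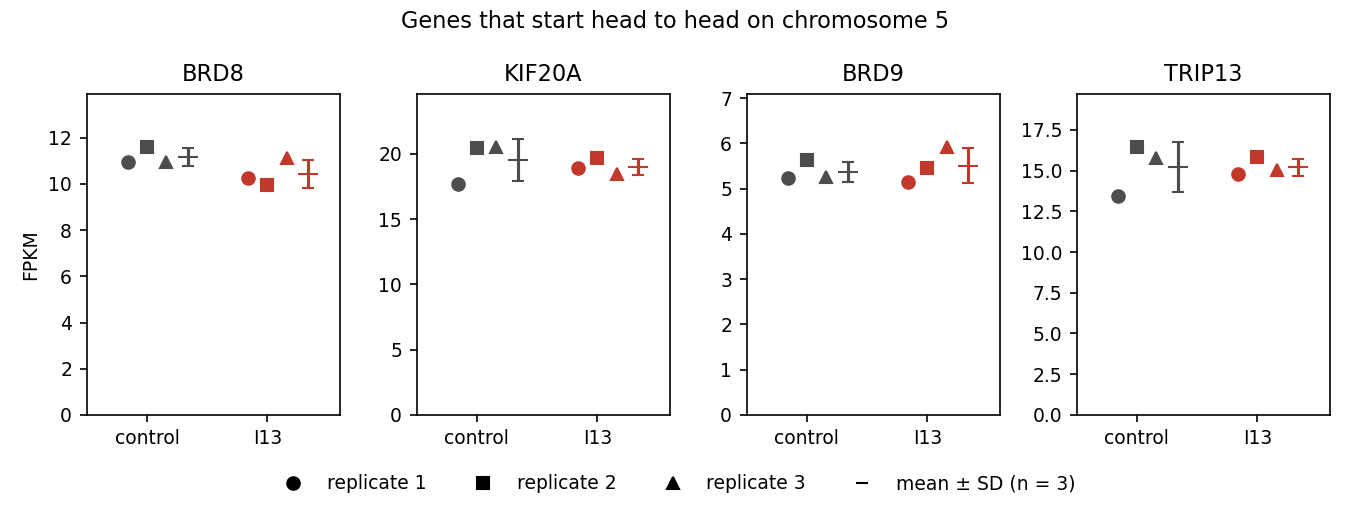
Expression in FPKM (y axis from 0, a different scale for each gene) of BRD8 and KIF20A and of BRD9 and TRIP13, which start head to head. Each symbol is a library and the bar is the mean with the SD. I13 libraries of KIF20A and TRIP13 lie inside the range of their controls.

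Genes that overlap the readers were of lower level in most cases, and the strand setting of the counting is not given in the sources used here, so fragments of a shared stretch cannot be told apart. KIF20A and TRIP13 were exceptions. KIF20A overlaps BRD8 by 268 bases and had 1118 to 1389 fragments per library, against 1151 to 1402 for BRD8. TRIP13 overlaps BRD9 by 182 bases and had 817 to 1005 fragments, against 783 to 924 for BRD9. BRD2 spans 32968660 to 32981505 of chromosome 6 on the plus strand, and its first 435 bases overlap HLA-DMA, a chaperone gene of MHC class II peptide loading. HLA-DMA had 17 to 33 fragments per library and was at 0.390, 0.391 and 0.476 FPKM in control and 0.818, 0.449 and 0.568 FPKM in I13 libraries. The groups overlapped (log2 fold change 0.43, SE 0.26, limma adjusted p = 0.983, unadjusted 0.15). The log2 fold change of HLA-DMA was 0.68 within the 4 libraries and -0.069 within control replicate 3 and I13 replicate 2. HLA-DOA, on the other side of BRD2, was listed at 0 in every library. BRD3, at 134030305 to 134068535 of chromosome 9 (minus strand), overlaps BRD3OS by 4362 bases. BRD3OS had 224 to 309 fragments against 1611 to 1842 for BRD3, with a log2 fold change of -0.037 (SE 0.12), which was -0.10 within the 4 libraries and 0.089 within control replicate 3 and I13 replicate 2. BRD7, at 50313487 to 50368934 of chromosome 16 (minus strand), overlaps ADCY7 by 4649 bases, and ADCY7 had 46 to 78 fragments. BRD1, at 49773283 to 49827512 of chromosome 22 (minus strand), overlaps Z98885.3, with 5 to 9 fragments. ZDHHC11 overlaps the end of BRD9 by 696 bases on the same strand and had 310 to 472 fragments, with a log2 fold change of -0.21 (SE 0.12, limma adjusted p = 0.983). Copies of the readers were low as well. BRD7P2, a processed pseudogene of BRD7, had 22 to 46 fragments and BRD9P2 had 1 to 10, and the counting could have divided fragments between a gene and its copy.

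The nearest protein-coding genes that do not overlap were ZBED4 for BRD1, VAV2 and WDR5 for BRD3, TENT4B and NKD1 for BRD7, CDC23 for BRD8 and ZDHHC11B and NKD2 for BRD9. Their log2 fold changes lay between -0.22 for ZDHHC11B and 0.23 for NKD2, and none had an unadjusted p under 0.05. WDR5, a subunit of histone methyltransferase complexes, was at 38.40 ± 1.05 FPKM (SD, n = 3) in control and 38.60 ± 2.43 FPKM (SD, n = 3) in I13 libraries. Its log2 fold change was -0.058 within the 4 libraries and 0.13 within control replicate 3 and I13 replicate 2. FAM19A5 beside BRD1 and NME5 beside BRD8 were listed at 0 in all 6 libraries.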

How the data were processed

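Kasumi-1 cells were sequenced as 3 control libraries and 3 libraries of cells that had received I13 at 0.5 µM over 48 h, grouped by the sample labels. The libraries were made with a TruSeq Stranded mRNA kit. The submitters' processing notes name Trimmomatic, HISAT2, Cufflinks, HTSeq and hg38, with no versions or roles. The sources used here do not give the annotation. The authors deposited FPKM values per gene and library, which were used without further scaling.

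Genes were named, and exon lengths taken, from GENCODE release 29, which holds 32244 of the 32364 identifiers. With these lengths 25770 of 27002 genes above 0 (95.4%) came out as whole numbers of fragments in each library (tolerance 0.01), the 6 readers among them. Depth sets the precision of each value, and intervals from counting cover counting error only. Replicates differed by more than counting noise (chi-square per gene 2.85 to 7.54).

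Groups were compared by limma (version 3.58.1, under R 4.3.3) fitted to log2(FPKM + 0.1), two-sided, with a variance trend, over 18726 genes with a mean of at least 0.1 FPKM, adjusted by Benjamini-Hochberg over all of them. A call needed an adjusted p under 0.05 and 0.58 or more on the log2 scale. Voom was run on recovered fragments, for 12963 genes averaging 10 or more. Both fits were tested on simulated data with 200 genes of at least 1 FPKM changed 2-fold and no effect of the library pair. The simulation used the same dispersion between replicates for every gene. Changes as small as those of the readers were not simulated. Limma recovered 159 of the changed genes with 20 false calls, and voom 186 with 2 false calls.

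The members, the lists, the library pair and the tests were chosen with earlier results of these data known. Named genes were the 6 readers, list genes with an unadjusted p under 0.05 or otherwise the 2 of each list with the highest mean, neighbours and overlapping genes, and the most similar gene of each reader. Others were named after their values were seen. RefSeq promoter windows matched all 6 readers. Levels of HBB and KRT18 were not analysed here, and some other markers are not reported here.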

Additional observations from a re-analysis of the deposited data

How the results depend on the processing

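Of 102 alternative fits of the 6 readers (17 for each gene), 0 gave an adjusted or unadjusted p under 0.05, with a smallest unadjusted p of 0.0821 and log2 fold changes between -0.15 and 0.081. The settings were pseudocounts, filters, median scaling, quantile normalization, variance models, voom, a term for the library pair, the replicate number as a block and each library left out. The direction was kept in 97 and turned in 5, all with a library left out. With a term for the library pair, limma's unadjusted p was 0.104 for BRD1, 0.118 for BRD8 and 0.147 for BRD7. It was at least 0.411 for BRD2, BRD3 and BRD9. With each library left out, the log2 fold change was between -0.031 and 0.015 for BRD3, -0.15 and 0.00013 for BRD7, -0.019 and 0.081 for BRD9, -0.11 and -0.047 for BRD1, -0.036 and -0.018 for BRD2 and -0.14 and -0.062 for BRD8. For BRD2 the value within control replicate 3 and I13 replicate 2 was -0.043, against -0.025 over all libraries. It rests on a single library of each group, so its own spread cannot be given. List medians lay between -0.039 and -0.0044 (BRD1 partners) and between -0.044 and -0.0095 (TIP60-EP400) with each library left out. The other 4 turned direction, with -0.049 to 0.0074 (PBAF), -0.055 to 0.0032 (ncBAF), -0.049 to 0.0091 (P-TEFb) and -0.034 to 0.017 (other bromodomain genes).

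Over all genes, the adjusted p and fold threshold called 0 by limma, 9 without the variance trend, 6 by voom and between 0 and 2 with a library left out. At the unadjusted p and fold threshold 445 were called, 119 with a minimum mean of 1 FPKM, 134 with a pseudocount of 1, 192 by voom and between 447 and 516 with a library left out. The unadjusted p alone was passed by 963 genes and by 582 with a minimum mean of 1 FPKM. With a term for the library pair 1427 genes passed it, and with a library left out 764 to 1233 did. Genes without overlap numbered 1783, and 3064 to 4397 with a library left out, where fewer values must be separated. With the replicate number as a block, 506 genes passed the unadjusted p and fold threshold. Same-numbered libraries did not all deviate together (correlations 0.32, -0.379 and -0.297), so the numbers were not taken as pairs. The p-value of BRD8 under the block was 0.275. Depth left a counting error of 1.5% to 3.42% on the level of each reader in a library.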
